A study of Mus musculus with 9 samples.

Results

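The genes described here are 10 core members of the small RNA machinery: Drosha and Dgcr8, Dicer1 and Tarbp2, the Argonautes Ago1, Ago2, Ago3 and Ago4, and the scaffold proteins Tnrc6a and Tnrc6b. They were chosen by name, and every probe set that the platform annotation gives to one of them alone was used, which made 35 of 45037 probe sets and 10 of 18193 genes. The study measured polysome-bound mRNA, the fraction loaded with ribosomes, in mouse oocytes on 9 Affymetrix arrays. Germinal vesicle (GV) oocytes, still in prophase arrest, were taken 0 h after human chorionic gonadotropin (hCG), metaphase I (MI) oocytes after 4 h and metaphase II (MII) oocytes after 14 h, with 3 arrays per stage. The description field of the MI samples carries the code pGVB, which is not explained, while their other labels say MI. All mice had received PMSG, a gonadotropin that drives follicle growth, 48 h before hCG. The labels used here give neither the strain nor the age of the mice, and no number of oocytes per array. The labels speak of biological replicates and independent sample sets without stating that each set came from its own animals. The p-values therefore describe the scatter of these samples alone, which may be technical. A polysome signal reflects both the amount of an mRNA in the oocyte and its loading with ribosomes, and in bulk samples fewer cells and less RNA per cell cannot be told apart. Total RNA was not analysed here.

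MicroRNAs begin as hairpins in long transcripts. The nuclease Drosha, with its RNA-binding partner Dgcr8, cuts the hairpin out in the nucleus, and Dicer1, with partners such as Tarbp2, cuts it again in the cytoplasm. An Argonaute protein then holds one strand and finds target mRNAs, and Tnrc6 proteins link it to the enzymes that shorten poly(A) tails. Dicer1 also makes endogenous small interfering RNAs from long double-stranded RNA without Drosha or Dgcr8, and Ago2 can cut targets of those directly. In mouse oocytes the interfering RNA branch is known to matter most: oocytes without Dicer1 or Ago2 form poor spindles, while oocytes without Dgcr8 mature. Mouse oocytes also make a shorter Dicer1 protein from a promoter within the gene.

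One hairpin ties the machinery to one of its own genes. Drosha and Dgcr8 are known to cut hairpins within the Dgcr8 transcript, and the microRNA gene Mir1306 lies inside Dgcr8. It is shown because it lies within the Dgcr8 gene, and whether the polysome-bound Dgcr8 mRNA carries it was not tested. The sequence is from RefSeq, build GRCm38.p6, chr16:18284239-18284317, minus strand, 79 bases, with both mature arms in capitals in the hairpin and the seed (bases 2 to 8) in capitals in each arm.
Mir1306 hairpin: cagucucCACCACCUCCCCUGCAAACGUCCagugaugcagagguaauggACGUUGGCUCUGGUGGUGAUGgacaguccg
mmu-miR-1306-5p: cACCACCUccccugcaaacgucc
mmu-miR-1306-3p: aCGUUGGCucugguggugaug
Levels of these mature microRNAs were not analysed here.

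Most probe sets on these arrays lay near background: the median intensity of an array was between 12.39 and 13.22, and between 53.1% and 54.8% of probe sets were under 16. Of the 35 probe sets, 14 were at or above 16 on all 9 arrays and 3 were under 16 on all of them. At its brightest probe set each gene except Ago1 and Ago4 reached the median signal over genes. Oocyte markers were present throughout, with 11 or 12 of 12 at or above 16 on each array. Their summed intensity was 28023 to 35438 on MII arrays, 47209 to 50566 on MI arrays and 54720 to 58792 on GV arrays. Of 13 measured granulosa, cumulus and theca markers, 4 to 9 were at or above 16, and their sum was 681 to 1014 on MII arrays, 1022 to 1205 on MI arrays and 921 to 961 on GV arrays. Fshr and Cyp17a1 stayed under 16 on every array, while Cyp11a1 reached 782. Array MI 3 had 9 of these 13 markers at or above 16, the most of any array. Of 6 measured blood, immune and endothelial markers, 1 to 4 were at or above 16, with a sum of 611 to 877 on MII arrays, 117 to 613 on MI arrays and 164 to 347 on GV arrays, and Pecam1 alone reached 785. The part of other cells in the results below was not tested.

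Over the whole span from GV to MII, polysome-bound Tarbp2 fell. Drosha fell and Ago3 rose at the brightest probe set of each, while each also had a probe set that went the opposite way. The other 7 genes did not pass the test. In the limma test over 18193 genes, 3 of 10 genes passed in MII against GV, where 14.3% of all genes passed (5.46% rose and 8.8% fell) and 27.4% of the genes at or above the median signal did. All 3 belong to the 8 members at or above that median, so their count is to be read beside the 27.4%. One gene, Drosha, passed in MII against MI, where 9.32% of all genes passed (2.54% rose and 6.78% fell, and 17.8% of genes at or above the median signal passed), and none passed in MI against GV, where 0% did. That first step had a smallest adjusted p of 0.819 among the 10 genes, for Ago3, and 1308 of all genes had an unadjusted p under 0.05. The 3 comparisons share arrays and are not independent of each other. By limma's F test, Drosha and Ago3 differed among the 3 stages, as 11.6% of all genes did. Probe sets of one gene often went opposite ways, so each is described on its own below. An _s_at or _x_at probe set holds probes that may also match other transcripts.

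**Figure D1:**
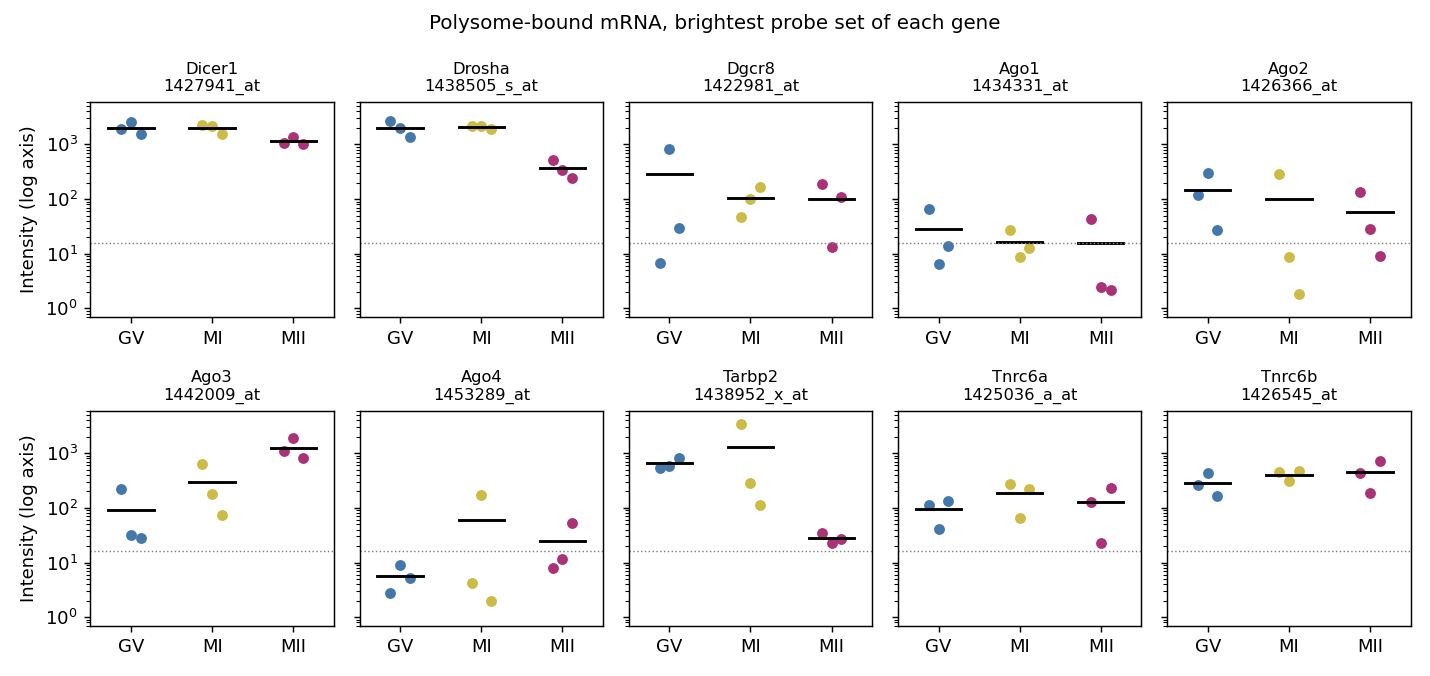
Intensity on each of the 9 arrays at the brightest probe set of each gene (log axis), by stage. Points are arrays, in replicate order from left to right, black bars are means of 3 arrays, and the dotted line is 16. In Drosha, Tarbp2 and Dicer1, which did not pass, the 3 MII points lie below all GV and MI points. In Ago3 they lie above them.

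Drosha, which makes the first cut in microRNA processing, had its strongest signal at probe set 1438505_s_at. Its intensity there was 2641, 1986 and 1348 on the 3 GV arrays, 2141, 2139 and 1891 on the MI arrays, and 516, 339.9 and 238 on the MII arrays. GV and MI differed by less than the spread between arrays, and every MII array lay below every earlier one. Drosha fell 5.69-fold in MII against MI on the scale of log2(intensity + 16) (log2 change -2.51, SE 0.34, limma adjusted p = 0.00499, n = 3 each). Against GV it fell 5.32-fold (log2 change -2.41, SE 0.34, limma adjusted p = 0.0034). It passed in both comparisons whichever single array was left out, with adjusted p between 0.00521 and 0.0241.

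The other probe sets of Drosha did not all follow. At 1428656_at the intensity was 796, 195 and 196 in GV, 502, 129 and 122 in MI, and 9.85, 124 and 33.9 in MII. Here too all MII arrays were below all GV arrays, but the difference did not pass (log2 change -2.55, limma adjusted p = 0.118 over all probe sets). At 1438440_at the order was the opposite, with 82.8, 38.9 and 90.3 in GV, 39.3, 102 and 21.85 in MI, and 101, 277 and 155 in MII (MII minus GV: log2 change 1.12, adjusted p = 0.282 by limma). Averaged over its 3 probe sets, Drosha no longer passed (MII minus MI -0.98, limma adjusted p = 0.207; MII minus GV -1.28, limma adjusted p = 0.0735).

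Dgcr8, the partner that anchors Drosha on the hairpin, scattered too widely to place. At 1422981_at the intensity was 6.80, 838 and 29.4 in GV, 47.97, 98.6 and 167 in MI, and 186, 13.4 and 108 in MII. The highest and the lowest value both came from GV arrays, and the 95% interval of the log2 change in MII against GV ran from -3.13 to 2.95. Its other 3 probe sets had log2 changes of -0.94, -1.47 and -0.04 in that comparison, and none passed (smallest limma adjusted p = 0.226). At 1455311_at, GV arrays had 18.3, 161 and 67.45 and MII arrays 10.05, 11.4 and 17.4, so all MII values were lower and lay near background.

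Dicer1, the enzyme shared by the microRNA and interfering RNA branches, was measured by a pair of probe sets that moved in opposite directions. At the brighter one, 1427941_at, the intensity was 1903, 2543 and 1522 in GV, 2292, 2125 and 1569 in MI, and 1039, 1366 and 1012 in MII. All MII arrays were below all earlier arrays, but the difference did not pass: the log2 change was -0.78 against GV (95% interval -1.40 to -0.16, limma adjusted p = 0.102) and -0.80 against MI (interval -1.42 to -0.18, limma adjusted p = 0.12). At 1460571_at the intensity was 378, 391 and 501 in GV, 805, 563 and 219.9 in MI, and 1353, 1148 and 4063 in MII. There every MII array was above every earlier one (MII minus GV: log2 change 2.10, 4.28-fold, limma adjusted p = 0.0684 over all probe sets). This change did not pass either.

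The ratio between these probe sets was also taken within each array. The log2 ratio of 1460571_at to 1427941_at was -2.29, -2.65 and -1.57 in GV, -1.49, -1.89 and -2.75 in MI, and 0.38, -0.25 and 1.99 in MII. It was 2.88 higher in MII than in GV and 2.75 higher in MII than in MI, with no overlap. The pair was chosen after the values were seen, so this is a description with no test. The files give no probe positions, so which Dicer1 transcripts each probe set reads was not tested.

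**Figure D2:**
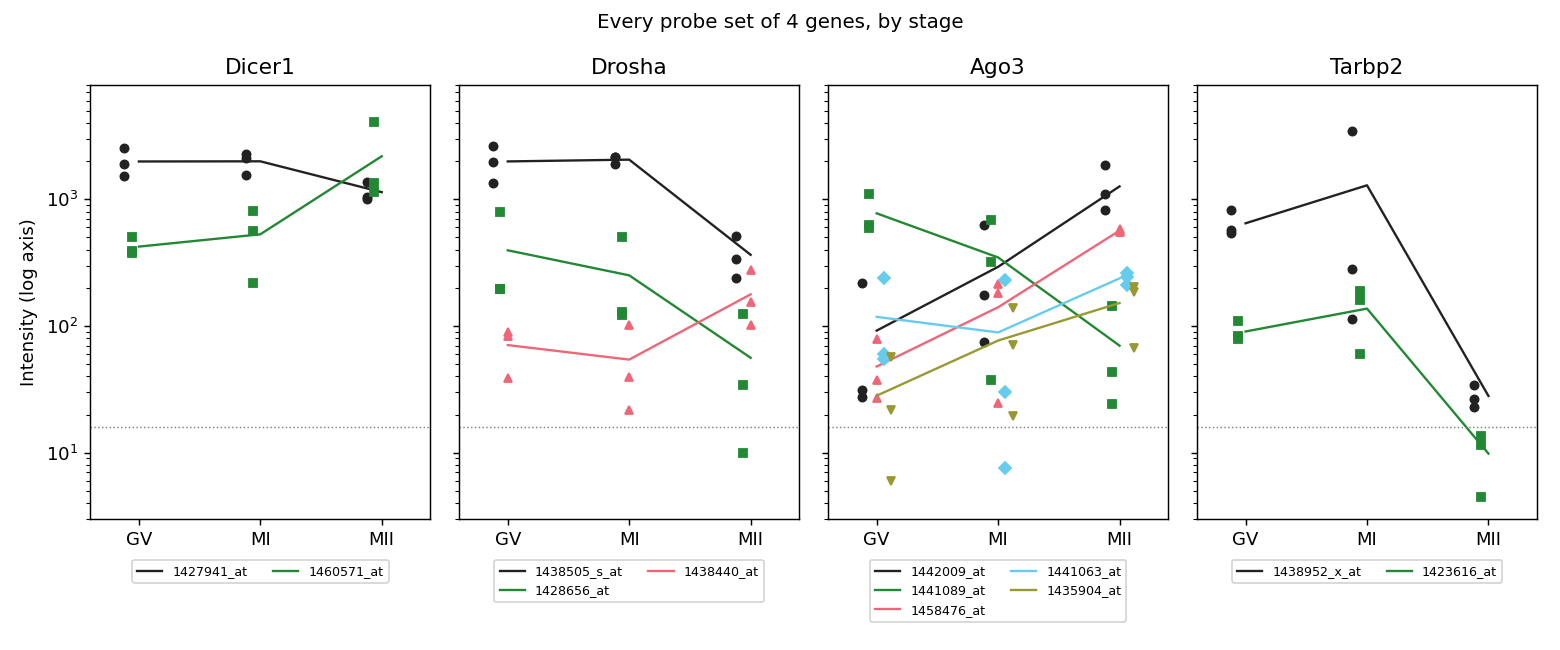
Intensity (log axis) at every probe set of Dicer1, Drosha, Ago3 and Tarbp2 by stage. Points are arrays, lines join the stage means and the dotted line is 16; the Tarbp2 lines drop together in MII, while 1460571_at of Dicer1, 1438440_at of Drosha and 1441089_at of Ago3 run against the brightest probe set of their gene.

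Tarbp2, the double-stranded RNA-binding partner of Dicer1, fell at both of its probe sets, the brighter one in the test over genes and the dimmer one in the test over all probe sets. At the brightest, 1438952_x_at, the intensity was 539.7, 574 and 827 in GV, 3474, 284 and 113 in MI, and 34.3, 23.1 and 26.7 in MII. The GV and MII arrays were tight and far apart, while the MI arrays spanned a wide range with MI 1 on top. In MII against GV the log2 change was -3.90 (14.9-fold lower, SE 1.03, limma adjusted p = 0.041 over genes), and it was -3.55 in MII against MI (limma adjusted p = 0.0746). With MII values not far above 16, the size against GV depended on the pseudocount: it was -2.93 with pseudocount 64 and -4.47 with pseudocount 1. Without MI 1 the change against MI was -2.17 (limma adjusted p = 0.0292) and without MI 3 it was -4.55 (0.0284), so that it passed in both. The call against GV held without MI 1 or MI 3 but was lost without any one of the other 7 arrays (adjusted p from 0.0579 to 0.114), with pseudocount 64 (0.107), in the test over all probe sets (0.0611) and with the replicate number as a block (0.0504).

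The dimmer probe set of Tarbp2, 1423616_at, passed on its own. It had 83.8, 78.55 and 109 in GV, 161, 190.1 and 60.6 in MI, and 13.5, 4.49 and 11.5 in MII. Every MII array was under 16 and every earlier array was above 60. Its log2 change was -2.05 in MII against GV (limma adjusted p = 0.0139 over all probe sets) and -2.46 in MII against MI (adjusted p = 0.0102). With every MII value under 16, the sizes of both changes are set by the pseudocount. Averaged over both probe sets, Tarbp2 passed in both comparisons, with -3.01 against MI (limma adjusted p = 0.0238).

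Among the Argonautes, Ago3 rose and Ago1, Ago2 and Ago4 did not pass the test. Ago3, which binds microRNAs and lies next to Ago1, in a cluster of 3 genes on chromosome 4 that ends with Ago4, was brightest at 1442009_at. There it had 217, 31.5 and 27.5 in GV, 629, 176 and 74.3 in MI, and 1109, 1859 and 826 in MII. All MII arrays were above all earlier arrays, and the MI arrays lay between, overlapping GV. In MII against GV, Ago3 rose 15.5-fold (log2 change 3.95, SE 0.85, limma adjusted p = 0.0187), while MII minus MI was 2.44 (adjusted p = 0.134). The size against GV depended on the pseudocount: it was 3.23 with pseudocount 64 and 4.35 with pseudocount 1. The call was lost without GV 2 (adjusted p = 0.0638), GV 3 (0.0659), MII 1 (0.0516) or MII 2 (0.0624).

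Probe set 1458476_at of Ago3 also rose. It had 78.9, 27.15 and 37.5 in GV, 184, 213 and 24.6 in MI, and 562, 585 and 551 in MII, where the 3 arrays were nearly equal. Its log2 change was 3.27 in MII against GV (limma adjusted p = 0.0184 over all probe sets) and 2.24 in MII against MI (0.0999). At 1435904_at all MII arrays were again above all GV arrays, without passing (log2 change 1.98, adjusted p = 0.13), and 1441063_at had 1.19 with overlapping arrays. Probe set 1441089_at ran the other way, with 628, 1099 and 598 in GV, 683, 322 and 37.5 in MI, and 143, 24.2 and 42.9 in MII (MII minus GV: -3.40, limma adjusted p = 0.0651). The log2 ratio of 1442009_at to 1441089_at was 7.35 higher in MII than in GV, a pair chosen after the values were seen and given as a description. Averaged over its 5 probe sets, Ago3 had a log2 change of 1.40 and did not pass (limma adjusted p = 0.186).

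Ago2, the Argonaute that cuts its targets, had no stable level at any of 4 probe sets. At 1426366_at the intensity was 119, 299 and 26.9 in GV, 286, 8.76 and 1.86 in MI, and 134, 27.9 and 9.11 in MII. The 3 stages overlapped fully, replicates of one stage differed by more than the stages did, and the 95% interval in MII against GV ran from -3.96 to 1.65. At 1435636_at one array, MI 1, had 561 while the other 8 lay between 7.33 and 32.9. The remaining pair of Ago2 probe sets was at or above 16 on only 2 arrays and 1 array. Ago1, with 1 probe set, had 65.7, 6.57 and 13.9 in GV, 26.7, 8.59 and 12.9 in MI, and 42.9, 2.48 and 2.19 in MII, where most arrays were at background. Ago4 was under 16 on all arrays at 1429779_at, and at 1453289_at on all but MI 2 (173) and MII 3 (53.7). Differences in Ago1 or Ago4 between stages were not detectable at this signal, and those in Ago2 were not detectable with this scatter between replicates.

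The Tnrc6 scaffolds, which connect Argonautes to deadenylation, showed no change that passed. Tnrc6a had 9 probe sets, and at the brightest, 1425036_a_at, the intensity was 112, 40.7 and 132 in GV, 269, 63.99 and 223 in MI, and 129, 22.4 and 227 in MII. The log2 change in MII against GV was 0.11 (95% interval -1.66 to 1.89), and those of all 9 probe sets lay between -0.82 and 0.97. At 1426545_at, Tnrc6b had 266, 424 and 164 in GV, 444, 304 and 471 in MI, and 431, 189 and 711 in MII. Its log2 change in MII against GV was 0.53 there (95% interval -0.64 to 1.69, limma adjusted p = 0.624). The other probe sets, 1436982_at and 1460024_at, had 1.36 and 0.91, so all 3 lay above 0 and none passed.

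**Figure D3:**
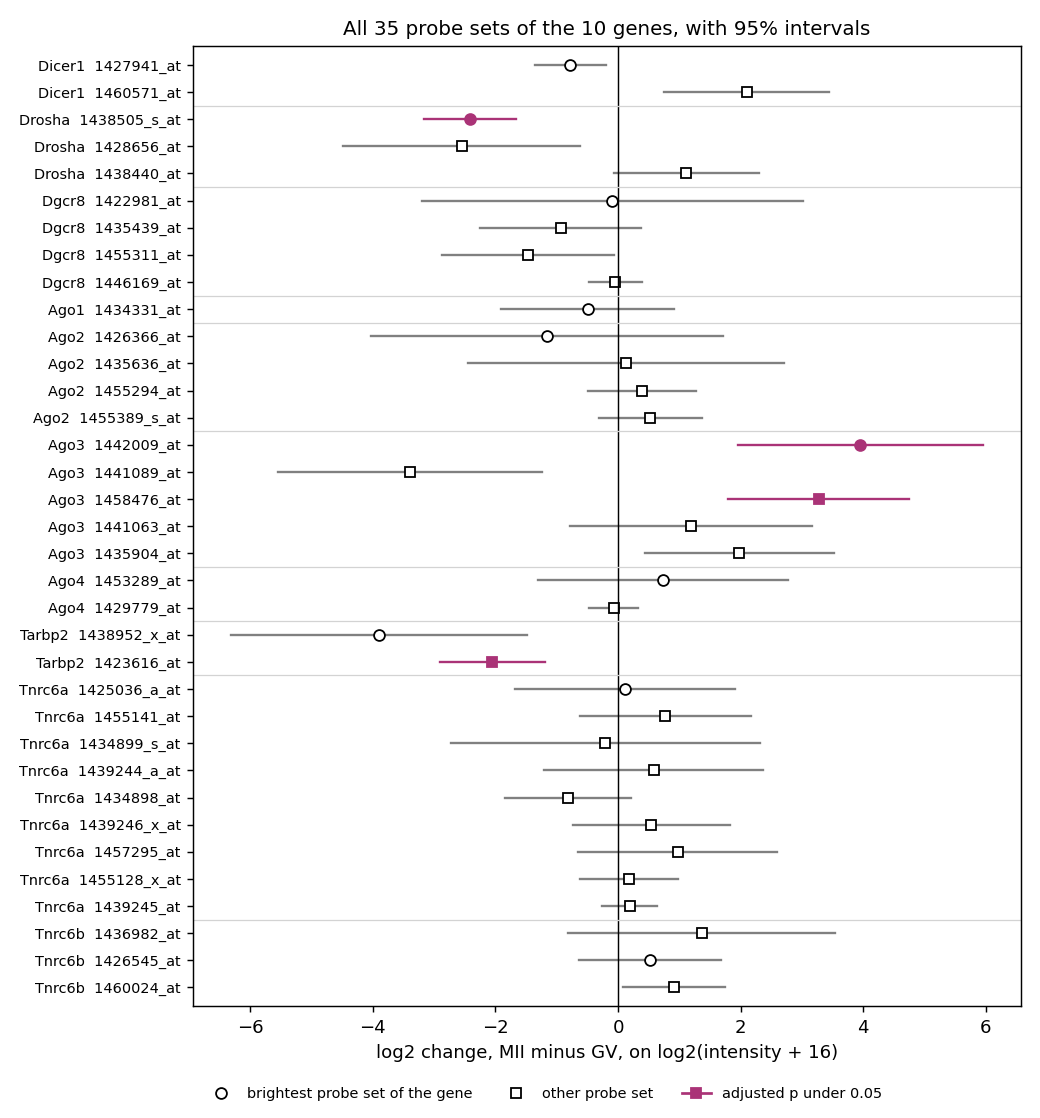
Log2 change in MII minus GV at each of the 35 probe sets with its 95% interval, from the fit over all probe sets. Filled symbols mark the 4 probe sets that passed: 1438505_s_at of Drosha and 1423616_at of Tarbp2, which fell, and 1442009_at and 1458476_at of Ago3, which rose.

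Counted over probe sets, the 10 genes did not stand apart from the array. In MII against GV, 2 of 35 probe sets rose and 2 fell, or 11.4% in all, where 8.98% of all probe sets passed (3.75% rose and 5.23% fell). In MII against MI, 2 fell and none rose, or 5.71%, where 5.42% of all probe sets passed (1.57% rose and 3.85% fell). The 3 MII arrays were all lower than the 3 GV arrays at 7 probe sets (20.0%, with 13.1% over the array) and all higher at 5 (14.3%, with 12.7% over the array). Against MI, MII arrays were all lower at 4 probe sets (11.4%, with 11.6% over the array) and all higher at 3 (8.57%, with 10.5% over the array). The median log2 change of the 35 probe sets was 0.18 in MII against GV and -0.02 in MII against MI. At gene level the median of the 10 genes was -0.29 in MII against GV, with -0.02 over all genes.

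The 3 genes whose pattern over the 9 arrays was most like that of Dicer1 at its brightest probe set were Ahdc1 (Pearson r = 0.98), Anapc13 (0.97) and Ccdc136 (0.97), among 8749 named genes at or above the median signal. For Ago2 they were Zfp182 (0.95), Tfrc (0.92) and Ahcyl2 (0.90). These values share arrays and scaling, are the highest of many, and are given as a description.

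Other genes of the pathway changed in both directions. Of 53 genes listed in 6 groups, 48 were measured; 10 rose and 8 fell in MII against GV, or 37.5%, and 43 of the 48 were at or above the median signal, where 27.4% of genes passed. In MII against MI, 5 rose and 5 fell, or 20.8%, where 9.32% of all genes and 17.8% of those at or above the median signal passed, but 11 rose and 3 fell after quantile normalization and 9 rose and 3 fell when the 95th percentile was made equal across arrays. In these alternatives the genes that rose also made up more of all called genes, 42.2% and 41.3%, where 27.3% did as deposited. In MII against GV that share was 47.0% and 48.1%, where 38.3% did as deposited. In MI against GV none of the 48 passed.

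Partners of the Drosha step all lay above 0 at their brightest probe sets in MII against GV, where 8740 of 18193 genes did. Some of their other probe sets lay below 0. Of 7 measured microprocessor partners, 4 rose in MII against GV, none fell and 3 did not pass, with a median log2 change of 1.16, where 5.46% of all genes rose and 27.4% of genes at or above the median signal passed either way. Tardbp, an RNA-binding protein that associates with Drosha and Dicer1, rose to a mean of 2756 ± 89.1 in MII, against 414 ± 36.4 in GV (SD, n = 3 each; log2 change 2.69, SE 0.28, limma adjusted p = 0.00137). Its other probe sets had 2.56 and 2.27 and, near background, 0.19 and -0.21, and the average of all was 1.5. The helicase Ddx5 had 3174 ± 318 in MII and 877 ± 335 in GV (log2 change 1.89, limma adjusted p = 0.00571). Its other 5 probe sets lay between -0.46 and 1.15, and their average with the brightest did not pass (0.53, adjusted p = 0.336). The related helicase Ddx17 had 987 ± 143 in MII and 247 ± 72.0 in GV (log2 change 1.96, limma adjusted p = 0.0134), and its other probe sets had 1.90 and 3.68.

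Of 2 export genes, 1 fell in MII against GV and 1 did not pass. In that comparison 14.3% of all genes passed (8.8% fell), and 27.4% of those at or above the median signal. Ran, the small GTPase that powers nuclear export of pre-microRNAs with Xpo5, fell to 1594 ± 290 in MII, against 3926 ± 542 in GV (log2 change -1.30, limma adjusted p = 0.00723), a call lost with pseudocount 1 (0.0701). Xpo5 itself had a log2 change of -0.26 (adjusted p = 0.829). Of 8 Dicer partners and pre-microRNA regulators, 1 passed, or 12.5%, which is below the 14.3% of all genes. It was Lin28a, which blocks let-7 maturation, with 2331 ± 1014 in MII and 652 ± 410.5 in GV (log2 change 1.92, limma adjusted p = 0.0442). Lin28a lost its call without any one array except GV 3 and MI 3 (adjusted p from 0.0597 to 0.13), and in 5 of 12 other alternatives (0.052 to 0.0892).

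The chaperones that help load Argonautes fell or did not pass. Of 6 measured, 2 fell in MII against GV and none rose, with a median of -0.89. That is 33.3%, near the 27.4% of genes at or above the median signal that passed. Hspa8, the constitutive HSP70, fell to 1652 ± 1294 in MII, against 8207 ± 974 in GV (log2 change -2.70, limma adjusted p = 0.0277), a call lost without GV 1, GV 2, GV 3 or MII 2 (adjusted p from 0.0577 to 0.0809) and with only the GV and MII arrays fitted (0.0607). Its other probe sets had -2.77, -2.67 and, near background, -0.30, and the average of all was -2.11. Hspa4, an HSP70 co-chaperone, had 579 ± 502 in MII and 1910 ± 268 in GV (log2 change -2.002, limma adjusted p = 0.044). That call was lost without any one array except MII 2 (adjusted p from 0.0522 to 0.138) and in 7 of 12 other alternatives (0.0533 to 0.0813). Its other probe sets lay between -0.72 and -0.64, and the average of all was -1.01.

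Partners of the silencing complex split, with 3 of 19 rising and 4 falling in MII against GV, or 36.8%, where 14.3% of all genes and 27.4% of those at or above the median signal passed. Fxr2, an RNA-binding relative of the fragile X protein, fell to 15.9 ± 3.94 in MII, which is at background, against 1455 ± 686 in GV (log2 change -5.44, limma adjusted p = 0.0017). The size of that change is set by the pseudocount: it was -4.16 with pseudocount 64 and -6.36 with pseudocount 1. Eif4enif1, which binds eIF4E and represses translation in oocytes, fell to 973 ± 210.1 in MII, against 3294 ± 642 in GV (log2 change -1.74, limma adjusted p = 0.003). Dcp1a, an activator of mRNA decapping, rose to 5524 ± 1159 in MII, against 1098 ± 269 in GV (log2 change 2.32, limma adjusted p = 0.00301), and its other probe sets had 2.15 and 2.30.

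Of 6 small RNA turnover genes, 2 rose and 1 fell in MII against GV, where 5.46% of all genes rose, 8.8% fell and 27.4% of those at or above the median signal passed. Tsnax, a subunit of the translin nuclease that removes the passenger strand, fell to 162 ± 46.3 in MII, against 619.9 ± 125 in GV (log2 change -1.85, limma adjusted p = 0.00425). Its other probe set, near background, had 0.12, and the average was -0.86. Tsn, named after its values were seen, did not pass at its brightest probe set (log2 change -2.18, limma adjusted p = 0.128). Its other probe sets had -2.80 (limma adjusted p = 0.0359 over all probe sets), -1.94 (0.00214) and -1.51 (0.285). The exonuclease Xrn2 had 1671 ± 250.5 in MII and 340.0 ± 53.4 in GV (log2 change 2.24, limma adjusted p = 0.0131; other probe sets 2.39 and 2.56). The mitochondrial polynucleotide phosphorylase Pnpt1 had 460.3 ± 105 in MII and 90.5 ± 73.1 in GV (log2 change 2.42, limma adjusted p = 0.02), a call lost without GV 2, MII 2 or MII 3 (adjusted p from 0.0501 to 0.0707) and with only the GV and MII arrays fitted (0.052). Its other probe sets, near background, had 0.20 and 0.04, and the average of all was 0.89.

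**Figure D4:**
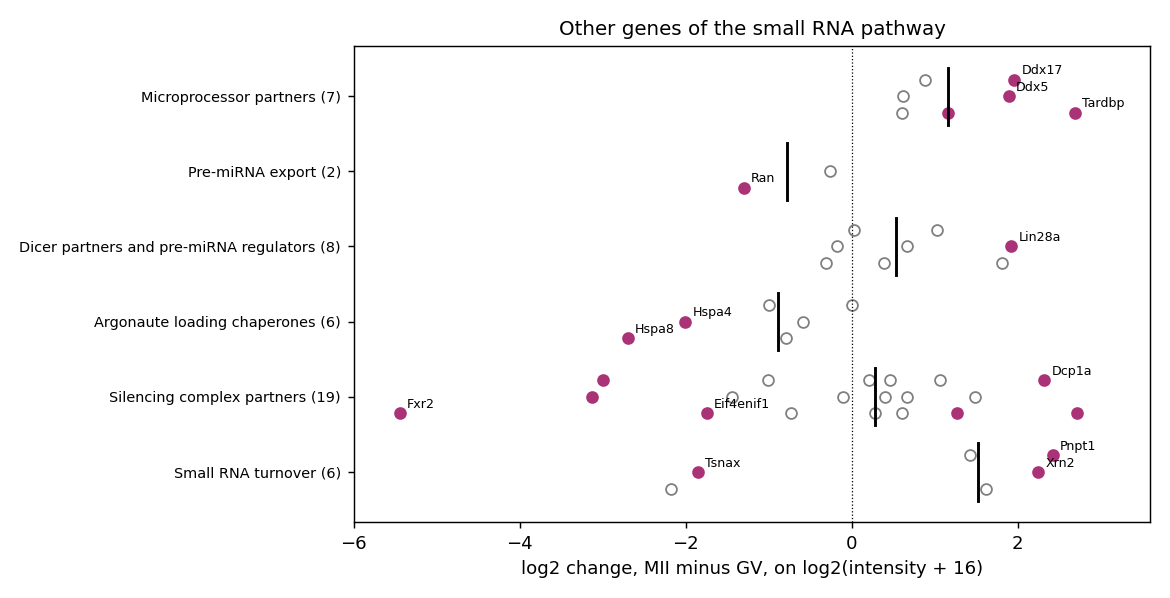
Log2 change in MII minus GV of the 48 measured pathway genes, each at its brightest probe set, by group, with the number measured in brackets. Filled points passed at an adjusted p under 0.05 over all genes, black lines are group medians and the named genes are those in the text; all 7 microprocessor partners lie above 0 and 5 of 6 chaperones below it.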

How the data were processed

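The values are array intensities on a linear scale, 1 per probe set and array, as the authors deposited them. Per the labels' protocols, polysome-bound mRNA was purified, reverse-transcribed, linearly amplified and labelled with biotin. How probes were summarised, corrected for background and scaled is not given in the sources used here. Of 45101 probe sets, 64 controls were left out, and 34945 of the rest had 1 gene symbol in the platform annotation, 932 several and 9160 none. Gene identifiers were looked up in RefSeq (GRCm38.p6), which changed 0 symbols, and the table held 0 other columns of samples.

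Values were taken as log2(intensity + 16), which understates changes of dim genes, with no filter on low signal. One limma model (3.58.1, R 4.3.3) with 3 stage means was fitted to 18193 genes, each by the probe set with the highest mean log2 value (a reading chosen over mean linear intensity after counts of called genes under both had been seen), and again to all 45037 probe sets. Tests were two-sided, and a call is a Benjamini-Hochberg adjusted p under 0.05. The fits were tested on simulated data. Named were all members, and per pathway group up to 3 called genes with the smallest adjusted p, and the 3 genes closest in pattern to Dicer1 and to Ago2. The alternatives changed pseudocount, scaling, filter, probe set choice, prior, samples fitted, block and single arrays. The members and lists were chosen with earlier results of these data known. Precision is limited by the 9 arrays.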

Additional observations from a re-analysis of the deposited data

How the results depend on the processing

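Drosha, Tarbp2 and Ago3 kept their direction in MII against GV under all 21 alternatives tried, and no called change of a member turned its sign. Of 10 members, 3 passed in MII against GV as reported, and 1 passed, Tarbp2, with the mean of all probe sets. In MII against MI the count was 1 as reported and 2, Drosha and Tarbp2, without the lowest 40% of genes and with a trended, robust prior. Among the stages it was 2 as reported and 1 when every probe set was tested, when all probe sets of a gene were averaged, and at pseudocount 64. With pseudocount 1 it was 3: Drosha, Ago3 and Tarbp2. Leaving out 1 array gave 1 to 3 calls in MII against GV, 1 to 2 in MII against MI, 1 to 3 among the stages and 0 to 0 in MI against GV; the cause was not tested beyond fewer arrays. Of the pathway genes in MII against MI, 2 rose and 2 fell with pseudocount 1, 11 rose and 3 fell after quantile normalization, 9 rose and 3 fell at the same 95th percentile, and 3 fell when only the 2 stages compared were fitted, where 5 fell in MII against GV. Without 1 array, 0 to 5 rose and 3 to 5 fell in MII against MI. In MII against GV, 5 to 11 then rose and 4 to 7 fell. The count of 0 rises was without MII 3. Over all genes, 462 rose and 1233 fell in MII against MI as reported, and 187 and 744 without MII 3. These counts were 185 and 931 with pseudocount 1, 827 and 1132 after quantile normalization, and 782 and 1110 at the same 95th percentile. In MII against GV, 993 of all genes rose and 1601 fell as reported. Without 1 array, 617 to 1131 rose there and 1138 to 1716 fell. The probe set for a gene was taken by its mean log2 value; taking it by mean linear intensity, an alternative added after the data were seen, changed the probe set of 1 member, Tnrc6b (MII minus MI 2.39, adjusted p = 0.177; as reported -0.04), and no count of members or pathway genes. With the replicate block, 2 members passed in MII against GV (Drosha and Ago3; Tarbp2 had adjusted p = 0.0504) and 1 in MII against MI. The labels do not say that replicate numbers pair arrays, and they were not treated as pairs: deviations from the stage means correlated at 0.00 to 0.23 between same-numbered arrays of different stages and at -0.25 to 0.11 between others, and not every array correlated best with its own number. Of 624 member values under the alternatives, 52 had the opposite sign to the reported one and were called in neither. Signal near background limits Ago1, Ago4 and part of the Ago2, Dgcr8 and Tnrc6a probe sets, and scatter between replicates limits Ago2 at its brightest one.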

Other observations

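Pathway genes that passed in MII against GV but fall outside the naming rule were chosen after their values were seen. Ddx6, a helicase of repressed mRNA granules, had a mean intensity of 315 in MII and 37.2 in GV (log2 change 2.72, limma adjusted p = 0.0155), while its other probe sets had 0.88, -0.13 and -0.14. Ipo8, an import receptor that also binds Argonautes, rose by 1.26 on the log2 scale at its brightest probe set (limma adjusted p = 0.0217). Its other probe sets had 0.74 and, near background, -0.29, and did not pass. Ilf2, a double-stranded RNA-binding protein, rose by 1.16 at its brightest probe set (limma adjusted p = 0.0272), while its other probe set had 0.27 and did not pass. Ddx20, a helicase of the SMN complex, fell from a mean intensity of 370 in GV to 35.1 in MII (log2 change -3.13, limma adjusted p = 0.0204). Wtip, a LIM protein that binds Argonautes, fell from 337 in GV to 30.1 in MII (log2 change -2.99, limma adjusted p = 0.0327). Both genes had MII values under 16, so the sizes of these changes depend on the pseudocount.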
